A study of Mus musculus with 2 samples.

Results

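The genes described here encode the apolipoproteins, the protein components of lipoprotein particles, together with the transfer protein that loads them with lipid, in the liver of mouse embryos. The 10 genes, Apoa1, Apoa2, Apoa4, Apob, Apoc1, Apoc2, Apoc3, Apoe, Apom and Mttp, were chosen by symbol, and all were found among the 43346 Ensembl genes measured. The tissue was healthy liver of strain B6NCrl embryos at embryonic day 11.5, pooled over males and females, with no transgene or treatment named in the labels. There were 2 libraries, called replicate 1 and replicate 2 after their biological replicate numbers, and the label of replicate 1 names 109 embryos. Each library was made by a SmartSeq protocol, which copies and amplifies RNA by PCR, from 1 cell-equivalent of RNA extracted with the Ambion mirVana kit. The assay title calls the libraries single-cell RNA-seq, although the source is pooled tissue. Both libraries belong to the same group, so there was no contrast between conditions and no test could be made.

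Lipids travel in plasma as particles whose surface carries apolipoproteins. The liver builds very-low-density lipoprotein around a single large protein, encoded by Apob, which stays with its particle, and MTTP, the microsomal triglyceride transfer protein, supplies lipid to it in the endoplasmic reticulum. The products of Apoa1 and Apoa2 are the main proteins of high-density lipoprotein, while the small apolipoproteins C and apolipoprotein E move between particles and act on lipases and receptors. At this stage the liver holds hepatoblasts, which later give rise to hepatocytes and cholangiocytes, and is also a site of blood formation.

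The total expected count, an estimated number of reads that need not be whole, was 33289699 in replicate 1 and 32607453 in replicate 2. Levels are given in TPM, a relative abundance corrected for transcript length and scaled to the same total in each library. All 10 hepatoblast markers of the list used were detected in both libraries, which here means 1 TPM or more, with a summed level of 10301 TPM in replicate 1 and 8896 TPM in replicate 2. None of 7 intestinal markers had a read in either library. For scale, 29658 of all 43346 Ensembl genes had no read in either, and 27.3% of 21474 protein-coding genes were detected in both. The lack of reads for these 7 therefore does not show that such tissue was absent. Of 6 markers of visceral yolk sac endoderm, another embryonic tissue that makes apolipoproteins, Rhox5 alone had reads, at 21.95 TPM in replicate 1 and 0 TPM in replicate 2, and it is named after its value was seen. Summed macrophage markers stood at 485 TPM in replicate 1 and 290 TPM in replicate 2, with 6 of 10 detected in both libraries and Cd68 at 0 in both. Summed mesenchymal markers stood at 275 TPM in replicate 1 and 560 TPM in replicate 2, with 7 of 10 detected in both libraries and Lhx2 at 0 in both. In bulk RNA of this kind, fewer cells of a type and less RNA per cell cannot be told apart.

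Of the sequences below, only the first pair bears on a result, the level of Apob. The first pair is the splice junction of exons 2 and 3 in the Apob transcript models Apob-202 and Apob-204, shown because it is where the shared part of the models differs and because the estimated Apob level depends on how reads were divided between them. Both are on the plus strand of mm10 chromosome 12, read from the GENCODE M21 transcripts, and the capitals mark the 3 bases, chr12:7979253-7979255, that Apob-202 has and Apob-204 lacks.
Apob-202: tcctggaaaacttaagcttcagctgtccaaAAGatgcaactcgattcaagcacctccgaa
Apob-204: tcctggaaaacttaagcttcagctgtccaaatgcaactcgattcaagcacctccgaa

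The second set, on which no result depends, is the RefSeq sequence (GRCm38.p6, plus strand) that lies before the first annotated base of 4 genes. Apoa1, Apoa2 and Apob had reads and Apoa4 had none. The stretches differ in length, with 200 bases for Apoa1, 250 for Apoa2, 221 for Apob and 102 for Apoa4. Not printed are the windows of Apom and Apoe-206, which had reads and held no match. The windows are chr9:46228380-46228579 for Apoa1, chr1:171224804-171225053 for Apoa2, chr12:7977427-7977647 for Apob and chr9:46240594-46240695 for Apoa4. Capitals mark matches to TATAAA (the letters of the TATA box), TGTTTAC or TGTTTGC (forkhead factor cores) on either strand. GCAAACA before Apob is thus TGTTTGC on the minus strand. TATAAA lies close to the first annotated base in the Apob stretch and far from it in the Apoa2 stretch.
Apoa1: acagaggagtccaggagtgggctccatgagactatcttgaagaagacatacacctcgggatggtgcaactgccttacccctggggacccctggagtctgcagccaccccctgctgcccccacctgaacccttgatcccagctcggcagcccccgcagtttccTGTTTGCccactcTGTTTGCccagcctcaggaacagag
Apoa2: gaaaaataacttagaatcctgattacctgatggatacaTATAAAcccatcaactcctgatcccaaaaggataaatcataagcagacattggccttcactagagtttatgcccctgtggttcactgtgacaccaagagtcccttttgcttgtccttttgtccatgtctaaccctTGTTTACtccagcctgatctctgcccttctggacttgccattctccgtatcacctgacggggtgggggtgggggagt
Apob: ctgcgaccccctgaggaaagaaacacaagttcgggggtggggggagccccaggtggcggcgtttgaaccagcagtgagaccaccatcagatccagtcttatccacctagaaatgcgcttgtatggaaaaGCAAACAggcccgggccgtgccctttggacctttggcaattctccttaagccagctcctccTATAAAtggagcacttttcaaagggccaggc
Apoa4: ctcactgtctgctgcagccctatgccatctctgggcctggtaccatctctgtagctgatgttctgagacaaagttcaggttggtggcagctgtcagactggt

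The RefSeq table held windows for 8 of the 10 genes, 11 in all, each of 300 bases from 250 before to 50 after a start. The motifs were chosen after the windows were seen, were searched on both strands, and do not overlap one another in the windows printed. TATAAA occurred in 3 of the 11 windows, those of Apoa2, Apob and Apoe, and in 13.6% of all 32851 windows. TGTTTAC occurred in 2, those of Apoa2 and Apoe, and in 3.65% of all windows. TGTTTGC occurred in 2, those of Apoa1 and Apob, and in 5.07% of all windows. CAAAGTCCA and CAAAGGTCA, cores bound by HNF4 and related nuclear receptors, occurred in none of the 11 windows, and in 0.475% and 0.478% of all windows. Only these exact letters were searched, so near matches were not counted. Whether the windows hold sites for these factors was not tested. These matches describe letters only. The Mttp window lay at the start of Mttp-202, a model without a read in either library, and the Apoc2 window at the start of Apoc2-203, which had 0 reads in replicate 1 and 1.38 in replicate 2, so neither window stands before the transcript that was measured. The same holds for both Apoe windows with a match, TATAAA in the window of Apoe-207 and TGTTTAC in that of Apoe-205, models without a read, while the window of Apoe-206, which had reads, held none of the motifs. A further Apoa2 window lay 3490 bases from the nearest annotated start, and the start of the Apom window lay 249 bases inside Apom-201; neither held a match.

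Of the 10 genes, 8 were detected in both libraries, and Apoa4 and Apoc3 had no read in either. For comparison, 15.0% of all 43346 Ensembl genes and 27.3% of 21474 protein-coding genes were detected in both. Together the 10 genes took 0.593% of all TPM in replicate 1 and 0.577% in replicate 2, or 0.585% ± 0.0112 (SD, n = 2). Their sum was 5931 TPM in replicate 1 and 5773 TPM in replicate 2. Against Alb, the gene of serum albumin, at 601 TPM in replicate 1 and 615 TPM in replicate 2, this was 9.63 ± 0.342 times as much. Afp, the fetal plasma carrier alpha-fetoprotein, alone had 0.821 of their sum in replicate 1 and 0.696 in replicate 2. The 3 highest genes, Apoa2, Apoa1 and Apoe, made up 81.6% of the summed level in replicate 1 and 82.3% in replicate 2.

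**Figure D1:**
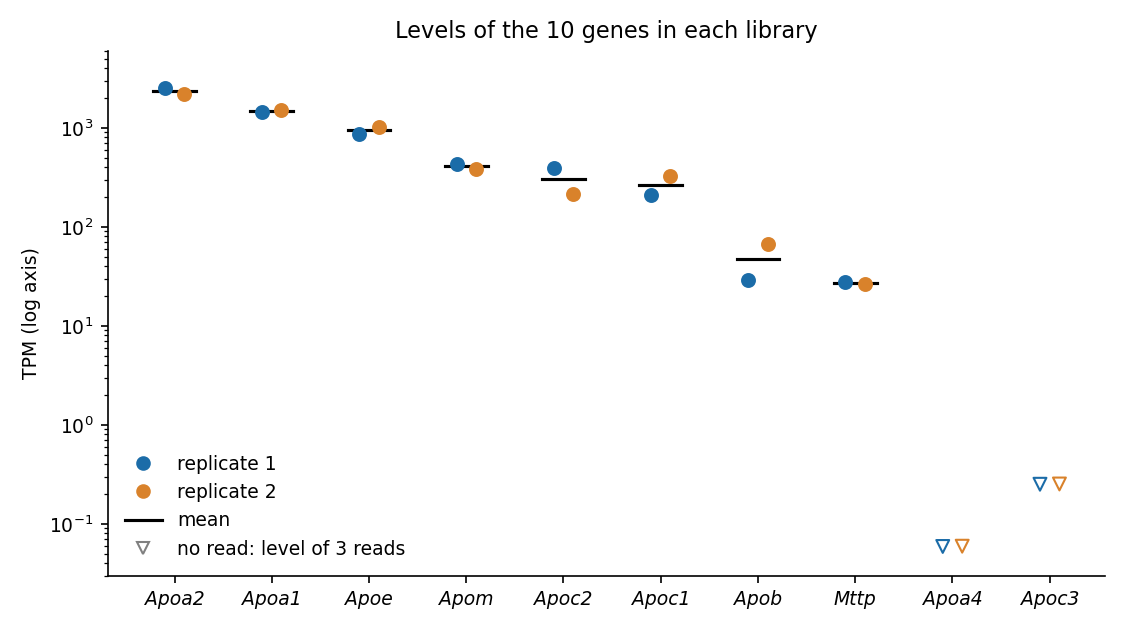
TPM (log axis) of each of the 10 genes, ordered by mean level, with replicate 1 and replicate 2 as points and their mean as a bar; open triangles give the level that 3 reads would make where a gene had no read. Apoa2 lies at the top at 2514 and 2201 TPM, Mttp is the lowest gene with reads at 27.8 and 26.5 TPM, and Apoa4 and Apoc3 had none.

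On the TPM scale, the genes of the structural proteins of high-density lipoprotein had the highest levels of the family. Apoa2 (chr1:171225054-171226379, plus strand), which encodes the second most abundant protein of these particles, had 2514 TPM in replicate 1 and 2201 TPM in replicate 2, from 29840 and 25441 reads. Its mean was 2358 ± 222 TPM (SD, n = 2), and it ranked 31 among all Ensembl genes in replicate 1 and 43 in replicate 2. Apoa1 (chr9:46228580-46230466, plus strand), whose product accepts cholesterol from cells and activates the esterifying enzyme LCAT, had 1449 TPM in replicate 1 and 1527 TPM in replicate 2. These values came from 40079 and 41238 reads, and the mean was 1488 ± 54.7 TPM. Both Apoa2 values lay above both Apoa1 values, and the TPM ratio of Apoa1 over Apoa2 was 0.576 in replicate 1 and 0.694 in replicate 2, or 0.635 ± 0.0829. Apoa2 had more TPM from fewer reads because its deposited effective length, 401 bases in replicate 1 and 393 in replicate 2, was shorter than that of Apoa1, 935 and 919 bases. Per transcript length, Apoa2 stood at 3.88 ± 0.428 times the level of Alb and Apoa1 at 2.45 ± 0.0498 times.

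Apoe, Apoc2 and Apoc1, neighbours in a cluster on chromosome 7, encode exchangeable proteins that act on receptors and lipases. Apoe (chr7:19696109-19699188, minus strand), whose product binds lipoprotein receptors and clears remnant particles, had 875 TPM in replicate 1 and 1024 TPM in replicate 2, a mean of 949 ± 106 TPM from 27077 and 31255 reads. Macrophages also make Apoe. Of the 10 macrophage markers, 6 were higher in replicate 1, 3 were higher in replicate 2 and Cd68 was at 0 in both. The part of macrophages in the Apoe level was not tested. Apoc1 (chr7:19689481-19692660, minus strand), which encodes a small exchangeable protein that slows particle uptake, had 207 TPM in replicate 1 and 326 TPM in replicate 2, or 267 ± 84.0 TPM. Apoc2 (chr7:19671579-19677941, minus strand), the activator of lipoprotein lipase, had 395 TPM in replicate 1 and 215 TPM in replicate 2, or 305 ± 127 TPM. Apoc1 was thus higher in replicate 2 and Apoc2 higher in replicate 1, so the order of these neighbours differed between the libraries. Apoe over Apoc1 was 4.22 in replicate 1 and 3.14 in replicate 2 on the TPM scale, or 3.68 ± 0.761.

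Apom (chr17:35128997-35132050, minus strand), a lipocalin-like apolipoprotein that carries a signalling sphingolipid on high-density lipoprotein, had 434 TPM in replicate 1 and 387 TPM in replicate 2. Its mean was 410 ± 33.1 TPM from 11712 and 10381 reads. The Apom values overlapped with those of Apoc2, and those of Apoc2 with those of Apoc1, so neither pair could be ordered beyond its spread. Both Apom values lay above both Apoc1 values.

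By TPM, Mttp and Apob were lower by more than an order of magnitude than Apoa1 and Apoa2. This does not extend to P4hb, the gene of the small subunit of the MTTP complex, which is counted in a list further on. It had 298 TPM in replicate 1 and 405 TPM in replicate 2. Mttp (chr3:138089854-138144968, minus strand) had 27.8 TPM in replicate 1 and 26.5 TPM in replicate 2, from 3174 and 3005 reads, with a mean of 27.1 ± 0.933 TPM. Apob (chr12:7977648-8016835, plus strand) had 29.1 TPM in replicate 1 and 66.7 TPM in replicate 2, with a mean of 47.9 ± 26.6 TPM. The reads ran the other way, with 7973 in replicate 1 and 5060 in replicate 2. Without length correction the gap of Apob was smaller, as Apoa2 had 29840 and 25441 reads and Apoa1 had 40079 and 41238. Of the 7 neighbouring pairs in the order of mean levels, Apoa2, Apoa1, Apoe, Apom, Apoc2, Apoc1, Apob, Mttp, the values of 5 pairs lay apart in both libraries and those of 2 overlapped. The pair of Apob and Mttp was apart only narrowly, at 29.1 TPM for the lower Apob library and 27.8 TPM for the higher Mttp library, and the order turned when Apob was counted on a single transcript model, as described further on.

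Apoa4 and Apoc3 had no read in either library. Apoa4 (chr9:46240696-46243459, plus strand) encodes a lipid-binding protein of intestinal and hepatic particles, and a count of 3 reads, the limit that a count of 0 allows, would correspond to 0.0591 TPM in replicate 1 and 0.0595 TPM in replicate 2. Apoc3 (chr9:46232933-46235636, minus strand) encodes an inhibitor of lipoprotein lipase, and its limit by the same count was 0.251 TPM in replicate 1 and 0.253 TPM in replicate 2. The deposited upper credibility bounds were 0.0585 and 0.0583 TPM for Apoa4, and 0.764 and 0.773 TPM for Apoc3. These limits cover read counting only, because PCR copies are not independent molecules and an RNA lost before amplification leaves no read.

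The genes without reads lie beside a gene near the top of the order. On chromosome 9, Apoc3 lies 2466 bases from Apoa1, Apoa4 lies 5059 bases beyond Apoc3, and Apoa5, whose product promotes triglyceride clearance, follows after 25173 bases. Apoa1 had 40079 and 41238 reads, while Apoc3, Apoa4 and Apoa5 had 0 in both libraries. On chromosome 7 the cluster holds Apoc2, Apoc4, Apoc1 and Apoe, all on the minus strand. Apoc4, a minor apolipoprotein gene between Apoc2 and Apoc1, had no read in either library, while Apoc1, 8001 bases beyond it, and Apoe, 3448 bases beyond Apoc1, were read in both. The strand setting of the counting is not given in the sources used here, so reads of overlapping genes on opposite strands could not be told apart. Gm10680, which overlaps Apoa4, had 0 reads in both libraries.

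**Figure D2:**
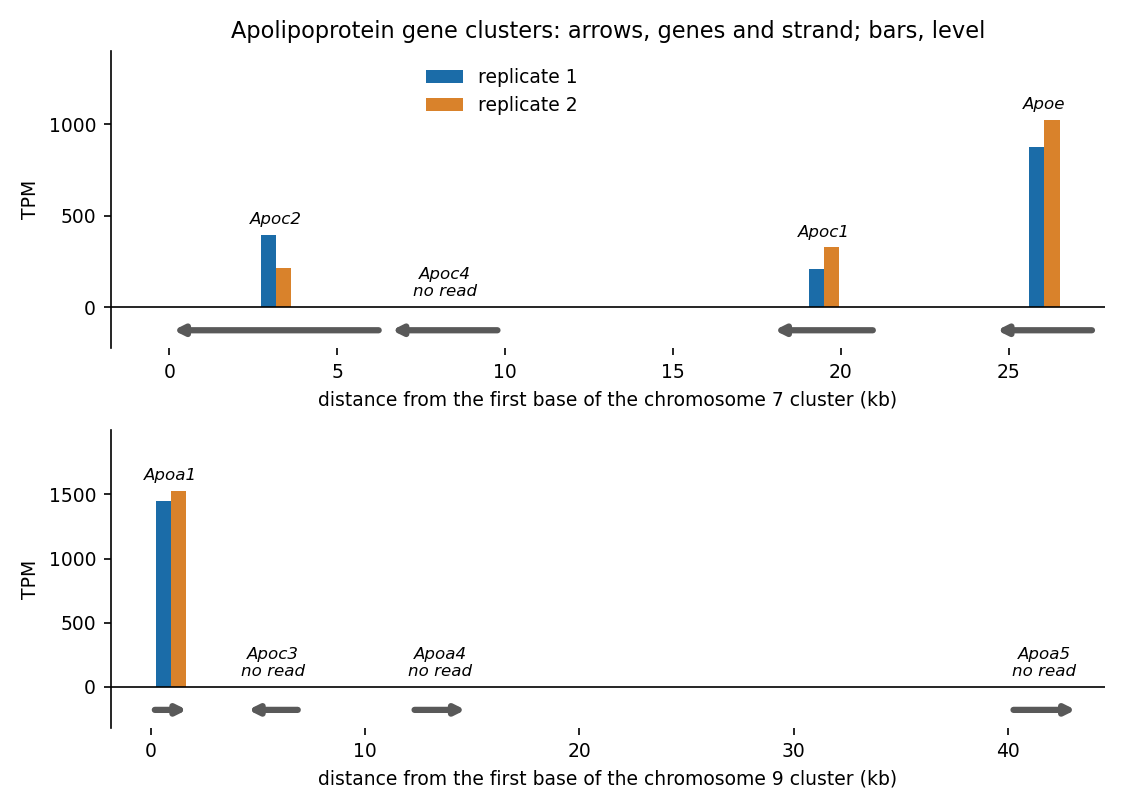
TPM of replicate 1 (left bar) and replicate 2 (right bar) for the genes of the chromosome 7 cluster (upper panel) and the chromosome 9 cluster (lower panel), placed by distance in kb from the first base of each cluster, with arrows for the extent and strand of each gene. On chromosome 9 Apoa1 alone has reads, at 1449 and 1527 TPM, and on chromosome 7 Apoc4 alone has none.

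The libraries were compared gene by gene as the log2 ratio of TPM + 1, replicate 1 over replicate 2, centred on the median of all genes averaging 10 TPM or more. Among the 8 genes with reads, 4 were higher in each library, and the centred log2 ratio was -0.05 for Apoa1, 0.22 for Apoa2, -0.20 for Apoe, 0.19 for Apom and 0.09 for Mttp. It was 0.90 for Apoc2, -0.63 for Apoc1 and -1.14 for Apob. Apob alone passed 2-fold, or 1 of 8, against 51.1% of the 6801 genes averaging 10 TPM or more and 18.7% of the 1495 genes averaging 100 TPM or more. The median absolute log2 ratio was 0.21 over the 8 genes, against 1.03 over the 6801 genes and 0.45 over the 1495. Of the 8 genes, 6 belong to the higher band. The deposited credibility bounds of TPM lay apart between the libraries for 7 of the 8 genes, Mttp being the exception, against 91.3% of the 6801 genes. Centred on spike-in RNAs, added in the laboratory, in place of genes, all ratios moved up, and the sign of 2 turned, so that Apoa1 stood at 0.34 and Apoe at 0.19. Apoc2 then passed 2-fold at 1.29 and Apob did not, at -0.75.

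**Figure D3:**
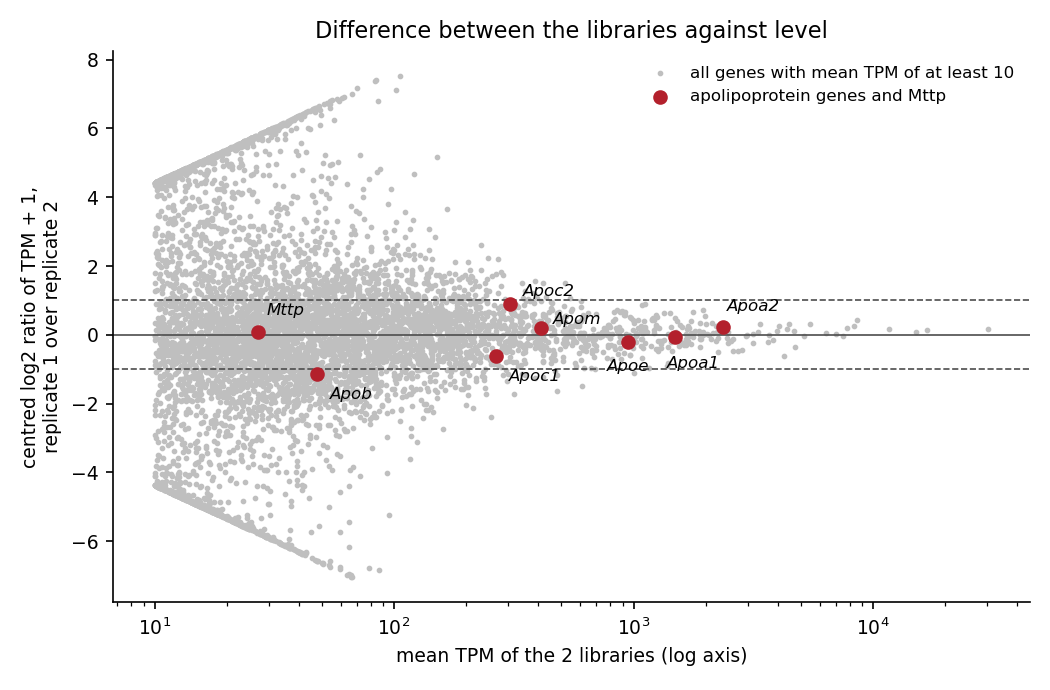
Centred log2 ratio of TPM + 1, replicate 1 over replicate 2, against mean TPM (log axis) for all genes averaging 10 TPM or more (grey) and the 8 apolipoprotein and assembly genes with reads (red); dashed lines mark 2-fold. Apob at -1.14 is the only red point outside the lines.

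Estimates per transcript add detail within the genes. The 10 genes had 35 transcript models as deposited, of which 14 had no read in either library. The 35 include Gm44805-201 and Gm44805-202, counted under Apoc2 but named in GENCODE M21 after an overlapping gene, Gm44805. Gm44805-201 had 0 reads in replicate 1 and 3.1 in replicate 2, and Gm44805-202 had none. Of the 7 genes with several models and reads, 6 had the same leading model in both libraries, and Apob did not. Over 4448 genes averaging 10 TPM or more and with several models, 37.6% had another leading model. The percent of a gene's abundance that a model took, a deposited estimate, was 99.9% in replicate 1 and 96.2% in replicate 2 for Apoa1-201, 89.0% and 87.7% for Apoc1-201, and 83.7% and 86.4% for Apoe-209. Apom has 1 model, and Mttp-201 took 100% of Mttp in both. For these genes the share of the leading model differed by less than 4 percentage points between the libraries.

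Apoa2 and Apoc2 kept their leading model while the others shifted. Apoa2-201 took 56.3% of Apoa2 in replicate 1 and 55.0% in replicate 2. Apoa2-204 took 38.1% in replicate 1 and 25.5% in replicate 2, while Apoa2-202 took 1.43% and 16.1%. These models are nearly the same, with 0 bases of Apoa2-201, 29 of Apoa2-204 and 16 of Apoa2-202 found in no other model. How many reads separate them was not counted. Apoc2-201 took 59.1% of Apoc2 in replicate 1 and 89.3% in replicate 2, and Apoc2-202, which has 86 bases of its own, took 40.9% and 10.6%. The reads assigned to Apoc2-202 were 2242 in replicate 1 and 314 in replicate 2, and those of Apoc2-201 were 3667 and 2997.

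**Figure D4:**
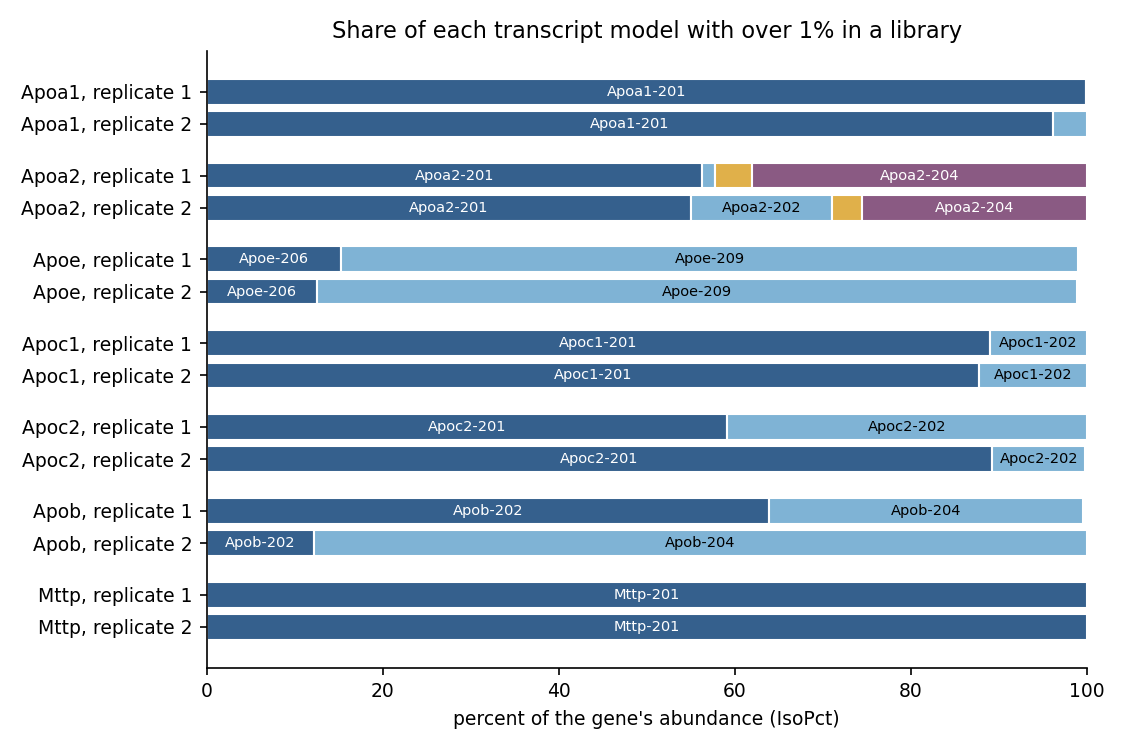
Percent of each gene's estimated abundance taken by each transcript model with over 1% in a library, with replicate 1 above replicate 2 for each gene; colours only separate the models within a gene. Apob is the only gene whose leading model differs, with Apob-204 at 35.6% in replicate 1 and 87.8% in replicate 2.

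Apob was the gene for which the level itself depended on the transcript estimate. Apob-202, the full-length model of 13934 bases in 29 exons, took 63.9% of Apob in replicate 1 and 12.2% in replicate 2. Apob-204, a model of 1118 bases in 9 exons whose 3′ end is annotated as incomplete, took 35.6% in replicate 1 and 87.8% in replicate 2. All 1118 bases of Apob-204 lie inside exons of Apob-202, and the junction printed above, with the capital bases of Apob-202 left out, is where the exons they share differ before the last exon of Apob-204. Apob-202 was assigned 7607 reads in replicate 1 and 3308 in replicate 2, and Apob-204 was assigned 312 and 1752 reads, or 3.91% and 34.6% of all Apob reads. Because a read weighs more on a short model, the deposited effective length of Apob was 9271 bases in replicate 1 and 2584 bases in replicate 2.

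**Figure D5:**
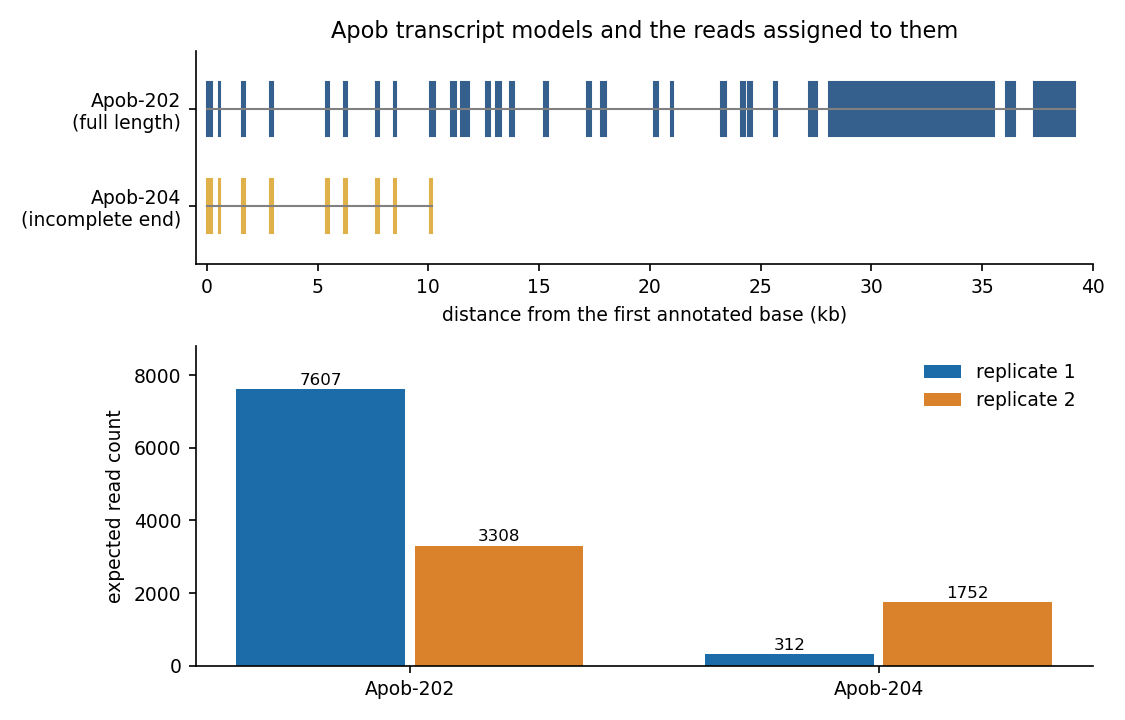
Upper panel, exons of Apob-202 and Apob-204 by distance in kb from the first annotated base; lower panel, expected read count assigned to each model in replicate 1 (left bar) and replicate 2 (right bar). Apob-202 had 7607 reads in replicate 1 and 3308 in replicate 2, and Apob-204 had 312 and 1752.

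With all Apob reads placed on the full-length model, an alternative added after the data were seen, Apob had 19.5 TPM in replicate 1 and 12.4 TPM in replicate 2, or 16.0 ± 4.98 TPM. The direction between the libraries turned, to 1.57-fold higher in replicate 1, close to the 1.58-fold of the reads themselves. Apob then lay below Mttp in both libraries, with a ratio of Apob over Mttp of 0.701 in replicate 1 and 0.470 in replicate 2, against 1.05 and 2.52 from the deposited TPM. The deposited values of Apob and these values share all reads and differ only in the length that divides them. Which transcripts were present was not tested.

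Other genes of the pathway were counted by list, with the same detection level of 1 TPM. All list genes are protein-coding, and over all protein-coding genes 27.3% were detected in both libraries, 9.68% in replicate 1 only and 7.07% in replicate 2 only. Of 14 other apolipoprotein genes, 2 were detected in both libraries, 1 in replicate 1 only, 2 in replicate 2 only and 9 in neither. The genes detected in both were Apool, at 68.7 TPM in replicate 1 and 54.3 TPM in replicate 2, and Apoo, at 35.8 and 3.60 TPM, both encoding proteins of mitochondrial inner membrane complexes. Clu and Apold1 were detected in replicate 2 only and Saa4 in replicate 1 only. Clu, which encodes clusterin, had 0.41 TPM in replicate 1 and 156 TPM in replicate 2. Apoh, a plasma glycoprotein gene, had no read in either library. The share detected in both, 2 of 14 or 14.3%, lay below the 27.3% of protein-coding genes, a gap not tested on so few genes.

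Of 17 genes for assembly and export of particles, 11 were detected in both libraries, 1 in replicate 1 only, 4 in replicate 2 only, and Tm6sf2 had no read. The share detected in both was 64.7%. P4hb, whose product is the small subunit of the MTTP complex, had 298 TPM in replicate 1 and 405 TPM in replicate 2, about an order of magnitude above Mttp, and serves other proteins too. Cideb was detected in replicate 1 only, and Dgat1, Soat2, Mia2 and Apobec1 in replicate 2 only. Sar1b, a GTPase of the coats that carry particles from the endoplasmic reticulum, had 170 TPM in replicate 1 and 81.1 TPM in replicate 2. Surf4, a cargo receptor for lipoproteins, had 174 and 34.6 TPM. Apobec1, which encodes the enzyme that edits Apob mRNA, had 0 reads in replicate 1 and 34.0 TPM in replicate 2, and its cofactor A1cf had 19.9 and 3.77 TPM; this pair is named after their values were seen.

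Of 13 genes of plasma remodelling, 4 were detected in both libraries, 3 in each library alone and 3 in neither. The share detected in both was 30.8%, near that of all protein-coding genes. Lpl, lipoprotein lipase, which the product of Apoc2 activates, had 99.2 TPM in replicate 1 and 26.5 TPM in replicate 2. Lcat, the enzyme activated by the product of Apoa1, had 74.3 TPM in replicate 1 and no read in replicate 2. Angptl8, a regulator of lipoprotein lipase, had 93.7 TPM in replicate 1 and no read in replicate 2. Besides Lpl, those detected in both were Lmf1, Angptl4 and Lipa. Lcat and Angptl8 were among those detected in replicate 1 only, Lipc, Pltp and Pon3 were detected in replicate 2 only, and Lipg, Gpihbp1 and Pon1 had no read.

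Of 19 genes for receptors and efflux, 5 were detected in both libraries, 3 in each library alone and 8 in neither. The share detected in both was 26.3%, again near that of all protein-coding genes. Lrpap1, a chaperone of lipoprotein receptors, had 0 reads in replicate 1 and 134 TPM in replicate 2, and Scarb1, a receptor for high-density lipoprotein, had 4.81 and 48.0 TPM. Abca1, the exporter that loads the product of Apoa1 with lipid, had 7.11 TPM in replicate 1 and 4.84 TPM in replicate 2, and is named after its value was seen. Lrp1 was also detected in both. Lrp5, Mylip and Cd36 were detected in replicate 1 only, and Lrp8 and Lrpap1 were among those detected in replicate 2 only. Lrp2, Vldlr, Sorl1 and Abcg1 were among the 8 with no read.

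Of 24 genes of transcription factors and cofactors known to act on hepatic or lipid genes, 6 were detected in both libraries, 5 in replicate 1 only, none in replicate 2 only and 13 in neither. The 6 of 24 detected in both are 25% of the list, near the share of all protein-coding genes. Nr1h3, the sterol-sensing receptor LXR alpha, had 43.6 TPM in replicate 1 and 108 TPM in replicate 2. Srebf2 had 47.9 TPM in replicate 1 and 36.3 TPM in replicate 2, and Srebf1 had 21.7 and 42.1 TPM, both encoding factors of sterol and fatty acid synthesis. Hnf4a, which encodes a regulator of many apolipoprotein genes, had 34.8 TPM in replicate 1 and no read in replicate 2. Cebpa, Creb3l3 and Prox1 likewise had no read in replicate 2, and Foxa3 was below 1 TPM there; these 5 are named after their values were seen. Foxa1 and Foxa2 had no read in either library. At an input of 1 cell-equivalent, an absence of reads does not show that the RNA was absent from the tissue.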

How the data were processed

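RNA of 2 liver libraries was measured by SmartSeq sequencing. The deposited tables give, per gene and per transcript, an expected count, TPM, FPKM and an effective length in bases, per the file headers. The deposited percent of each gene assigned to a transcript and the deposited TPM credibility bounds, used as a score of the estimate's uncertainty, come from the same tables. The assembly is mm10 with GENCODE M4, per the files' notes. The software for alignment and quantification was not given in the sources used here. Expected counts summed to 33289699 in replicate 1 and 32607453 in replicate 2.

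Symbols and coordinates came from GENCODE M21, matched by identifier without version. Of the 35 transcript models counted under these genes, 27 had the same length in both releases. With 1 group, no test was made, and neither edgeR nor DESeq2 was used. Values are per library or mean ± SD (n = 2), and the SD covers the spread between these 2 libraries only. Detection was a TPM of at least 1. Ratios used log2(TPM + 1), which understates differences of low genes, centred on the median of genes averaging 10 TPM or more, with a size rule of 2-fold. The ratio calculation was tested on simulated data drawn with read-counting noise only. That test does not cover amplification or loss of RNA.

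Genes named were the 10 genes, their cluster neighbours and, per list, up to 3 highest and up to 4 below 1 TPM in both libraries. Some list genes enter the counts but are not reported here by name. The genes and lists were chosen with earlier results of these data known. Alternatives varied the unit, denominator, length correction, pseudocount, filter, centring and replicate. Python 3.11.15, numpy 2.4.6, pandas 2.3.3 and matplotlib 3.10.9 were used.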

Additional observations from a re-analysis of the deposited data

How the results depend on the processing

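No paired analysis was possible because both libraries belong to 1 group. Of 176 values recomputed under an alternative, 137 moved by less than the spread between the libraries or stayed within 1.5 times for counts. Of the rest, 37 moved further and 2 reversed a difference past 2-fold between the libraries. Part of the 137 could not have come out otherwise. With 2 libraries, leaving 1 out moves a mean by less than their SD whatever the values, and FPKM gives the same share as TPM. Both reversals concern Apob. Its log2 ratio of replicate 1 over replicate 2, -1.14 from TPM, was 0.66 from read shares without length correction and 0.63 with all reads on the full-length model. Under either the count of genes past 2-fold was 0 in place of 1, since the length that divides the Apob reads differed between the libraries. Smaller ratios also changed sign: centred on spike-ins, Apoa1 went to 0.34 and Apoe to 0.19, against -0.05 and -0.20, and Mttp, at 0.09, went to -0.0031 with the filter at a mean of 1 TPM. The share of the 10 genes, 0.585% of TPM, was 0.628% over Ensembl genes only, 0.697% without globins and 0.380% of reads. The median level of the 10 genes, 286 TPM, was 341 TPM without globins. Without length correction Apoa1 over Apoa2 was 1.48 in place of 0.635, and Apoe over Apoc1 was 11.5 in place of 3.68. The order of levels was compared only by its number of pairs apart, 5 with and without length correction, although the order itself changed. In reads Apob, with 7973 in replicate 1 and 5060 in replicate 2, lay above Apoc1, with 2052 and 3214. By TPM it lay below Apoc1 in both libraries. Apoe had 27077 reads in replicate 1 and 31255 in replicate 2, against 29840 and 25441 for Apoa2, so their reads overlapped. Apob over Mttp was 0.586 in place of 1.78 with the full-length model. At a mean TPM of at least 100, 0 genes in place of 1 had another leading transcript, Apob being below that level. At a detection level of 10 TPM, 1 other apolipoprotein gene, 6 assembly and export genes and 2 receptor and efflux genes were detected in both libraries, in place of 2, 11 and 5.

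Leaving out a replicate gave counts of 3 to 4 for the other apolipoproteins, 7 in both cases for plasma remodelling, 8 in both cases for receptors and efflux, and 6 to 11 for regulators. These counts use 1 library, so genes read in that library only are included. The 8 detected genes stayed 8 at 0.1 TPM, at 10 TPM, with posterior means and in each library alone. The input of 1 cell-equivalent and the pair of libraries limit every level: a gene without reads is bounded by read counting and not by the molecules that entered amplification.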
